A study of Rattus norvegicus with 4 samples.

Results

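The genes of the mitogen-activated protein (MAP) kinase cascade and the dual-specificity phosphatases that switch it off were followed in the rat left ventricle. Members were taken by name: every probe set with a single gene symbol that begins with Mapk, Map2k, Map3k, Map4k, Dusp or Rps6k, with 1 phosphatase gene left out by the rule, and with the probe set of highest mean intensity standing for its gene. This gave 27 genes of 4736, from 50 probe sets of 8799 on the array. Of the 27, 14 had 1 probe set and 13 had 2 or more. 1 further probe set, annotated to both Mapk8 and Mapk10, was left out because it has several symbols.

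Total RNA had been hybridised to 4 oligonucleotide arrays of the rat U34 design, 1 for each of 4 groups. The groups are the Sprague dawley control (SD control), dTGR, dTGR treated with losartan (dTGR Losartan), and Terminal heart failure. dTGR rats overexpress the human genes for renin and angiotensinogen, so that they form angiotensin II in excess, and losartan blocks its type 1 receptor. All 4 samples carry 1 shared description, of transgenic rats with hypertension, cardiac hypertrophy and proteinuria that die after 7 weeks, and the label of the terminal sample names no genotype of its own. Below, both dTGR arrays means those titled dTGR and dTGR Losartan, which says nothing of the genotype of the terminal sample. The sources used here do not give age, sex or dose, or say whether 1 animal or a pool lies behind an array. With 1 array per group there is no replicate error between animals and no test: the differences below are sizes of change between arrays.

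Intensities are on a linear scale, and 26.0, the 40th percentile of all values, served as the floor under which a value was not read as a level. Of the 27 genes, 19 lay above the floor on all 4 arrays, 7 on 1 to 3 arrays, and 1 (Dusp4) on none. A gene was called higher or lower at a difference of 2-fold or more, with at least 1 of the compared values above the floor. The spread of probe sets about their own gene, among those above the floor on both arrays, had an SD of 0.51 to 0.60 on the log2 scale over the 6 comparisons. It measures how far probe sets disagree on the same RNA and is no measure of the spread between animals. The SD control and dTGR arrays came from 1 chip lot and the losartan and terminal arrays from another. The terminal array had a separate run day, and the dTGR array a separate fluidics protocol, so none of the 6 comparisons is free of all 3 differences. Cardiomyocyte markers were present as the tissue label says: all 9 of the 10 listed that are on the array lay above the floor on the 4 arrays, and their summed intensity was 107368 in SD control, 202591 in dTGR, 141057 in dTGR Losartan and 94944 in Terminal heart failure.

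The cascade is a relay of kinases. MAP3 kinases, some of them switched on by MAP4 kinases, phosphorylate MAP2 kinases, and these phosphorylate a MAP kinase on a threonine and a tyrosine. The MAP kinases fall into the ERK, JNK and p38 families and act on transcription factors and on effector kinases, and dual-specificity phosphatases remove both phosphates and so close the loop. In the heart, angiotensin II and mechanical load are known activators of the relay, and the transcripts of several phosphatases are themselves induced by it. Arrays measure these transcripts only, not phosphorylation or kinase activity.

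**Figure D1:**
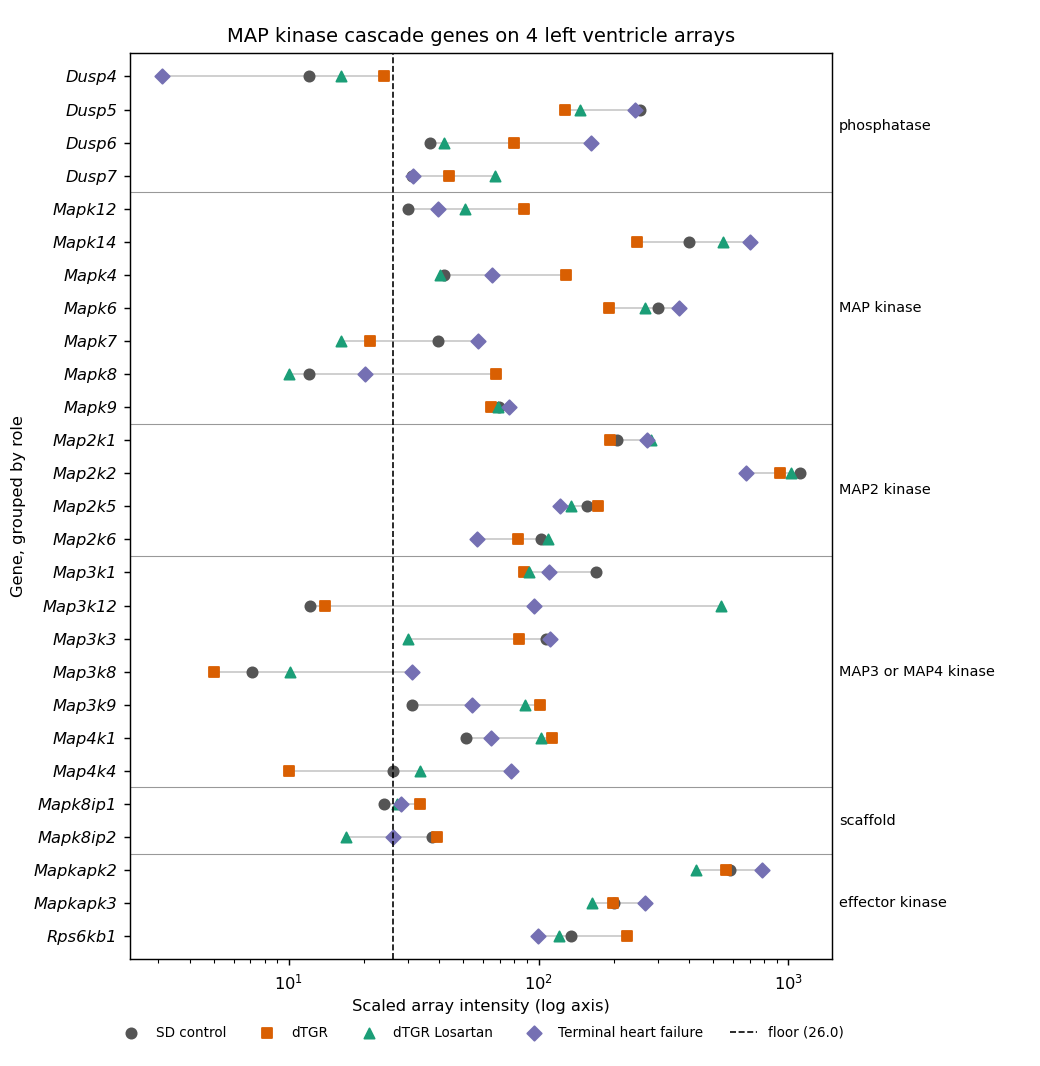
Scaled array intensity (log axis) of the 27 genes, grouped by role, with 1 point for each of the 4 arrays and the floor of 26.0 as a dashed line. Dusp6 runs from 36.6 in SD control to 161.7 in Terminal heart failure, Map3k12 lies above the floor on the losartan and terminal arrays only, and Mapk9 has the smallest range of the genes above the floor throughout.

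Between dTGR and SD control, 6 of the 24 members measured were higher by 2-fold or more in dTGR and none (0) lower, beside 7.69% of all 3615 genes measured that were higher and 5.86% that were lower. Scaled to the same median, 4 members were higher and 2 lower, and the split over all genes turned from 278 higher and 212 lower to 159 and 379 (215 and 247 with quantile normalization). The 6 were the MAP kinases Mapk4, Mapk8 and Mapk12, the kinases Map3k9 and Map4k1, and the phosphatase Dusp6. The median over members was -0.01 on the log2 scale, against 0.03 over all genes, so the rest of the set did not move with the 6. All 6 had intensities from 12.0 to 51.0 in SD control, near or under the floor, and a floor raised to the 60th percentile (66.2) left 0 of them. Over all genes above the floor on both arrays, those of low level (the lower 50%) had a median difference of 0.06.

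Between Terminal heart failure and SD control, 3 of 25 members were at least 2-fold higher and 0 were lower, where 6.37% of 3373 genes were higher and 8.33% lower. The 3 were Dusp6, Map3k12 and Map4k4, and 1 (Dusp6) remained under the floor of 66.2. The median over members was 0.27, against -0.14 over all genes, with 18 members above 0 and 7 below it, where 40.1% of all genes lay above 0. The split over all genes depends on the scaling: it was 215 higher and 281 lower as given, and 271 and 192 with cyclic loess, where the median over all genes was -0.01. The member median of 0.27 belongs to the setting as given, so the -0.01 is not its counterpart. Under cyclic loess the MAP2 kinases rose too. Map2k1, Map2k2, Map2k5 and Map2k6 went from 0.41, -0.72, -0.36 and -0.86 to 0.6, -0.6, -0.17 and -0.66.

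Terminal heart failure against dTGR gave 5 higher members (Dusp6, Map3k12, Map4k4, Mapk7 and Mapk14) and 3 lower members (Mapk8, Mapk12 and Rps6kb1) of 26, beside 7.68% and 11.8% of 3608 genes. Under the floor of the 60th percentile, 2 were higher and 1 lower, and with the median of the probe sets of each gene 3 were higher and 2 lower. Scaled to the same median, 7 members were higher and 1 lower, and the split over all genes turned from 277 higher and 426 lower to 442 and 226 (334 and 336 with quantile normalization, 365 and 272 with cyclic loess). The median over members was 0.25 and that over all genes -0.18.

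Losartan against dTGR gave 2 higher members (Map3k12 and Mapk14) and 3 lower members (Mapk4, Mapk8 and Map3k3) of 24, beside 5.90% and 9.49% of 3645 genes, with 0 lower under the higher floor. Over all genes, the split turned from 215 higher and 346 lower to 340 and 219 with scaling to the same median, and was 275 and 284 with quantile normalization. Mapk4 and Mapk8, higher in dTGR than in SD control, lay at the SD control level or under the floor with losartan. Dusp6 had a difference of -0.93 in the same direction, just short of 2-fold. These values share the dTGR array with the comparison of dTGR and SD control, so a high reading on that array enters both. The median over members was -0.17, against -0.05 over all genes, and scaled to the same median these were 0.06 and 0.17.

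Losartan against SD control gave 4 higher members (Map3k12, Map3k9, Map4k1 and Dusp7) and 1 lower member (Map3k3) of 24, beside 2.24% and 4.80% of 3394 genes. Map4k1 stood at 2.0-fold, on the threshold. Under the higher floor the counts were 1 and 0, and without a floor 2 members were higher. Terminal heart failure against dTGR Losartan, the comparison within the other chip lot, gave 4 higher members (Dusp6, Map3k3, Map4k4 and Mapk7) and 2 lower members (Map3k12 and Dusp7) of 25, beside 7.43% and 7.34% of 3404 genes (253 higher and 250 lower, and 305 and 189 with cyclic loess). Here 1 higher and 1 lower member remained under the higher floor.

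In all, 13 of the 26 members above the floor on at least 1 array were called in at least 1 of the 6 comparisons, and 35.6% of the 3808 such genes on the whole array were called at least once. Among genes above the floor on all 4 arrays, the terminal array held the highest value for 7 of 19 members (36.8%), against 21.5% of all 2584 genes, and the lowest value for 4 members (21.1%), against 37.4%. The median range over the 4 arrays was 1.0 on the log2 scale for those 19 members and 0.81 for all 2584 genes. The share called at least once, the share highest on the terminal array and the median range were thus higher for the members than for all genes. The share lowest on the terminal array was smaller. These are amounts that 1 array per group cannot test. Ranges went from 0.23 for Mapk9 to 2.14 for Dusp6.

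**Figure D2:**
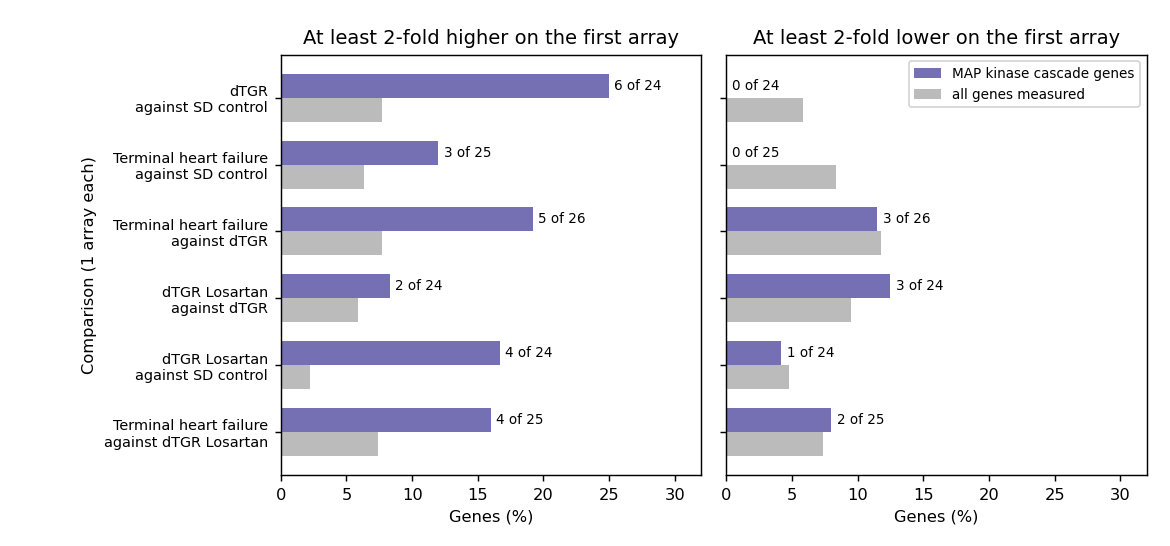
Percent of genes at least 2-fold higher (left) or lower (right) on the first array of each of the 6 comparisons, for the MAP kinase cascade genes (violet, with counts) and all genes measured (grey), with 1 array per group. The member share for dTGR against SD control is 6 of 24 higher and 0 of 24 lower, beside 7.69% and 5.86% of all genes.

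Of the phosphatases, Dusp6 was highest on the untreated disease arrays. Dusp6 encodes a cytoplasmic phosphatase that acts on ERK and whose transcript is induced by ERK signalling. Its intensity was 36.6 in SD control, 79.4 in dTGR, 41.6 in dTGR Losartan and 161.7 in Terminal heart failure. Both untreated disease arrays were thus higher than both the control and the losartan array. Terminal heart failure was 4.42-fold higher than SD control and 3.89-fold higher than dTGR Losartan (log2 differences of 2.14 and 1.96), and both calls held under all 8 alternative settings. The SD between probe sets of a gene in these comparisons was 0.51 and 0.56, which is no error between animals. dTGR was 2.17-fold higher than SD control, a call that was lost with median scaling (0.88), quantile normalization (0.94), no floor (0.86) and the higher floor.

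A second probe set of Dusp6 had intensities of 14.1, 117.4, 7.0 and 96.3 in SD control, dTGR, dTGR Losartan and Terminal heart failure. It too was high on both untreated disease arrays, and it lay under the floor on the other arrays. The order of the disease arrays differed between the probe sets: Terminal heart failure was 2.04-fold higher than dTGR on the first and had a log2 difference of -0.29 on the second, so that difference is not settled. Dusp6 was the only member at least 2-fold higher in both comparisons within a chip lot, among 23 members measured in both, and 35 of 3211 genes (1.09%) were. Beside it, macrophage markers were higher on the terminal array: of 10 listed, 7 are on the array and 5 lay above the floor on all 4, with Csf1r and Itgam under the floor on all 4. 4 of the 5 were higher by 2-fold or more on the terminal array than in SD control, beside 6.37% of all genes. The summed intensity of the 7 was 1480 in SD control, 2229 in dTGR, 1573 in dTGR Losartan and 4475 in Terminal heart failure. Their part in the Dusp6 difference was not tested, and in RNA of a whole ventricle a change in cell numbers and one in RNA per cell cannot be told apart.

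Dusp5, a nuclear phosphatase of ERK, had another order. Its intensity was 253.8 in SD control, 127.3 in dTGR, 147.1 in dTGR Losartan and 242.9 in Terminal heart failure. The control and terminal arrays were thus nearly equal (log2 difference -0.06), and both dTGR arrays were lower. dTGR was 1.99-fold lower than SD control, just short of the threshold, and the terminal array was 1.91-fold higher than dTGR. Dusp5 has 1 probe set, so no second reading was available.

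The 250 bases upstream of the annotated start of these 2 phosphatase genes are shown because they are both read as transcripts of feedback regulators of ERK and differ in order over the arrays. The sequences are those of RefSeq, build GRCr8, on the plus strand, at chr1:262543524-262543773 for Dusp5 and chr7:35979354-35979603 for Dusp6. Capitals mark matches to the GC box GGGCGG on either strand and to the CArG box, the recognition pattern of serum response factor.
Dusp5: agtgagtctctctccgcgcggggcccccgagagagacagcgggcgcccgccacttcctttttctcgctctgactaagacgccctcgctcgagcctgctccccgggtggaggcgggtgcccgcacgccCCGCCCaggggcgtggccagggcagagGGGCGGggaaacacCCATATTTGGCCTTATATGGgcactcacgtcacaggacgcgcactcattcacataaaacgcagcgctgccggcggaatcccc
Dusp6: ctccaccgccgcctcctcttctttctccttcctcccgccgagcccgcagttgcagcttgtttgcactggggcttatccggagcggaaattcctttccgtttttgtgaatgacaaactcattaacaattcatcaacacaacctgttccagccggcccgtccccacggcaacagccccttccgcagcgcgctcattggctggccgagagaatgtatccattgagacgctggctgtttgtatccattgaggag
The Dusp5 window holds 2 CArG boxes side by side, beginning 82 and 72 bases before the start, and 2 GC boxes beginning 123 and 96 bases before it. The Dusp6 window holds none of the letters searched. A CArG box was found in the windows of 2 of the 23 members with a sequence (Dusp5 and Map4k1) and in 1.5% of all 33469 promoter windows of that length, and GGGCGG in 15 of 23 and in 30.5%. The member windows had from 47.2% (Mapk8ip2) to 84.4% (Dusp7) G and C, beside a median of 51.2% over all windows. GGGCGG is made of G and C only, and its shares were not adjusted for base composition. TGACTCA (AP-1), TGACGTCA (cAMP response element) and CCGGAAGT (ETS), searched on both strands, were found in 0 of 23 member windows and in 4.0%, 1.6% and 3.1% of all windows. These are matches of letters in a short window and show no binding.

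Dusp7, a further cytoplasmic phosphatase of ERK, had intensities of 31.1 in SD control, 43.6 in dTGR, 66.7 in dTGR Losartan and 31.4 in Terminal heart failure. It was highest with losartan, 2.15-fold above SD control and with the terminal array 2.12-fold below it. Neither call held without a floor (0.81 and -0.80). Dusp4, a nuclear phosphatase, had values of 12.0, 24.1, 16.1 and 3.1 on those arrays in the same order, all under the floor. The 3 measured phosphatases had 3 different orders over the arrays.

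Among the MAP kinases, 3 of low signal (Mapk4, Mapk8 and Mapk12) were highest in dTGR. Mapk4, an atypical kinase known as ERK4, had intensities of 41.9 in SD control, 128.3 in dTGR, 40.2 in dTGR Losartan and 64.8 in Terminal heart failure. The dTGR array stood above the other 3, 3.06-fold over SD control and 3.19-fold over dTGR Losartan. Mapk12, the gene of p38 gamma, a form found in muscle, had 30.0, 87.1, 50.6 and 39.7 on the same arrays. Its second probe set had 22.1, 35.9, 23.1 and 38.8, where dTGR and Terminal heart failure were alike, so the 2.19-fold lower value in Terminal heart failure than in dTGR was not repeated (0.11).

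Mapk8, the gene of JNK1, lay above the floor on the dTGR array only, at 67.6, with 12.0 in SD control, 10.0 in dTGR Losartan and 20.1 in Terminal heart failure. It was at least 2.60-fold higher in dTGR than on each of the others. Mapk9, the gene of JNK2, had 69.7, 64.6, 68.7 and 75.9, the smallest range of the 19 genes above the floor throughout (0.23). Its 2 other probe sets lay lowest on the losartan array, and one of them was at 9.1 there, beside 57.9 in SD control, 49.4 in dTGR and its highest value in Terminal heart failure. The 2 JNK genes thus differed on these arrays, Mapk8 being above the floor on 1 array only and Mapk9 at a near constant level on the probe set used.

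Beside the low-signal kinases that were high in dTGR stand the properties of that array. Its record gave 0 cycles for washes A1 and B and 0 seconds for the first stain, against 10 cycles (wash A1), 4 cycles (wash B) and 600 seconds in the records of the others. It had 63.5% of probe sets above the floor, where the others had 58.2% to 59.1%. Whether this contributed to the values of Mapk4, Mapk8, Mapk12, Map3k9 and Map4k1 was not tested, and the dTGR group and its fluidics protocol cannot be told apart.

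Mapk14, the gene of p38 alpha, the main p38 kinase of the heart, had 6 probe sets that disagreed. The brightest had intensities of 401.7 in SD control, 248.5 in dTGR, 547.3 in dTGR Losartan and 700.4 in Terminal heart failure, which makes the terminal array 2.82-fold and the losartan array 2.20-fold higher than dTGR. The next, by mean intensity, had 430.4, 443.9, 269.0 and 435.2, which puts losartan lower and the other 3 arrays level. Another had 370.6, 271.8, 276.8 and 432.7. Taking the median of the 6 probe sets, the difference between losartan and dTGR turned to -0.79 and that between Terminal heart failure and dTGR was 0.14. The direction of Mapk14 with losartan is therefore not settled by these data. The terminal array was at or above the losartan array on all 6, with log2 differences from 0.06 to 1.17.

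Mapk7, the gene of ERK5, had 39.4 in SD control, 21.1 in dTGR, 16.1 in dTGR Losartan and 57.1 in Terminal heart failure. Both dTGR arrays lay under the floor, and Terminal heart failure was at least 2.20-fold higher than either. Its second probe set lay between 19.1 and 30.0 on all arrays and showed no such difference (-0.05 against dTGR). Mapk6, the gene of the atypical kinase ERK3, was not called in any comparison, and both of its probe sets were highest in Terminal heart failure, at 363.8 and 144.8.

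**Figure D3:**
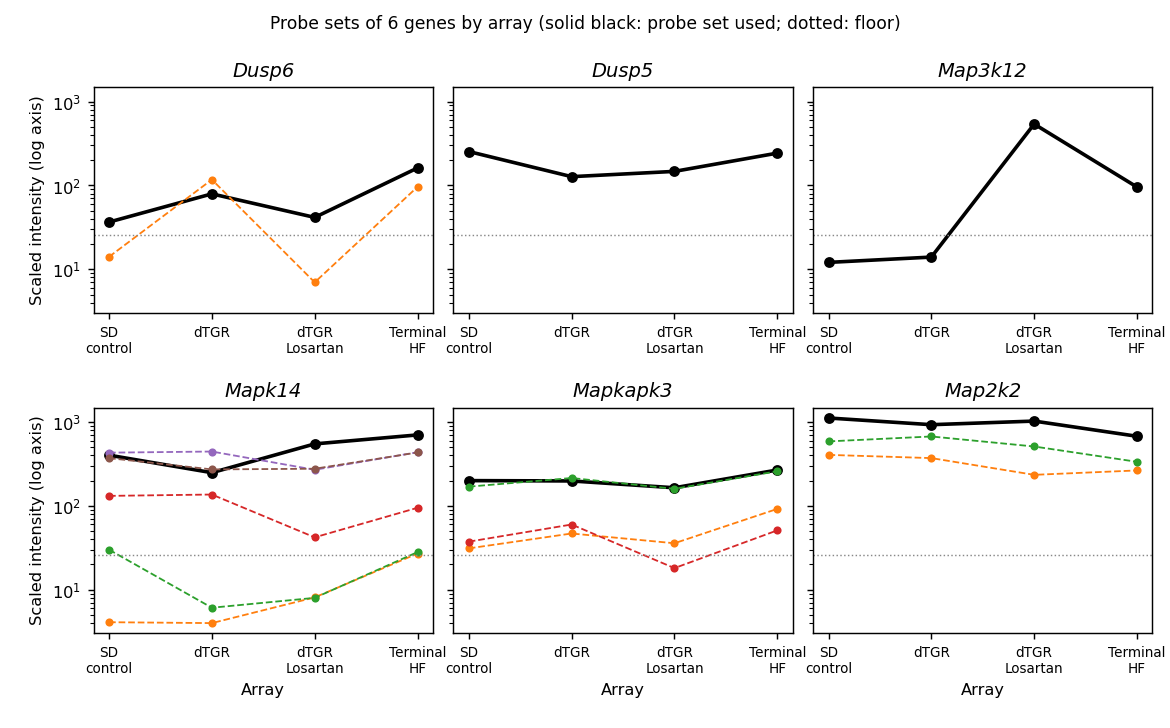
Scaled intensity (log axis) of every probe set of 6 genes on the 4 arrays, with lines joining the values of 1 probe set, the probe set used in solid black and the floor dotted. Both probe sets of Dusp6 are high in dTGR and Terminal heart failure, and those of Mapk14 and of Map2k2 run in different directions from dTGR to dTGR Losartan. All of Map2k2 are lower in Terminal heart failure than in SD control and dTGR. All of Mapkapk3 are higher in Terminal heart failure than in SD control and dTGR Losartan.

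The MAP2 kinases, which phosphorylate the MAP kinases, gave 0 calls in any of the 6 comparisons. They are only 4 genes, and 35.6% of the 3808 genes above the floor on at least 1 array were called at least once. Map2k2, the gene of MEK2, had 1115 in SD control, 927.4 in dTGR, 1024 in dTGR Losartan and 674.9 in Terminal heart failure. On this probe set it was lowest on the terminal array, with log2 differences of -0.72 from SD control and -0.46 from dTGR. Its 2 other probe sets gave -0.62 and -0.81 against SD control and -0.49 and -1.0 against dTGR, so all 3 were lower in Terminal heart failure than in both. Of these 2, 1 was lowest on the losartan array, at 234.2, beside 264.2 in Terminal heart failure. Losartan against dTGR gave 0.14 on the probe set used and -0.66 and -0.4 on the others. Map2k6, an activator of p38, had 102.6, 83.0, 109.1 and 56.4, and was also lowest in Terminal heart failure (-0.86 against SD control, 1 probe set).

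Map2k1, the gene of MEK1, had 205.5 in SD control, 192.6 in dTGR, 280.8 in dTGR Losartan and 272.2 in Terminal heart failure on its brightest probe set. Another had 147.5, 218.2, 96.9 and 194.8, which reverses the order of dTGR and losartan. The last had 106.2, 27.0, 11.0 and 46.4, highest in SD control. Against SD control it gave log2 differences of -1.97 for dTGR and -2.03 for dTGR Losartan. For Terminal heart failure against SD control it gave -1.19, where the first 2 gave 0.41 and 0.40. Map2k5, the activator of ERK5, had 156.9, 172.6, 134.5 and 122.2, and its second probe set had 102.4, 28.0, 44.6 and 87.6, low on both dTGR arrays. No direction can be given for Map2k1 or Map2k5 in dTGR from these readings.

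The upstream MAP3 and MAP4 kinases held the widest difference of the set. Map3k12, which encodes the dual leucine zipper kinase, an activator of JNK signalling best known in neurons, had 12.1 in SD control, 14.0 in dTGR, 539.6 in dTGR Losartan and 95.7 in Terminal heart failure. It lay under the floor on both arrays of 1 chip lot and above it on both arrays of the other. The losartan array was at least 20.8-fold higher than SD control and than dTGR, and the terminal array was 5.64-fold lower than the losartan array. These 3 calls held under all 8 alternatives, but they rest on 1 probe set and 1 array. Lot and group cannot be told apart in the comparisons across lots, and 37 of the 4736 genes had this pattern of floor crossings. Over all genes, 6 were at least 2-fold higher on both the terminal and losartan arrays than on both the dTGR and SD control arrays, as Map3k12 was.

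Map3k3, the gene of MEKK3, which acts on Map2k5 among others, had 106.7 in SD control, 83.8 in dTGR, 30.0 in dTGR Losartan and 111.3 in Terminal heart failure. Only the losartan array stood apart, 3.55-fold below SD control and with the terminal array 3.71-fold above it. The losartan array also had the highest ratio of 3' to 5' signal for Gapdh, 2.17, where the others had 1.28 to 1.73. For actin the ratio was 2.26 there, beside 2.07 in dTGR, 1.63 in Terminal heart failure and 1.46 in SD control. The part of RNA quality in this and other low values on the losartan array was not tested. Map3k9, a mixed lineage kinase, had 31.0, 101.0, 88.2 and 54.1, and Map4k1, a MAP4 kinase of blood cells, had 51.0, 113.6, 102.1 and 64.3. Both were high on both dTGR arrays, treated or not, and lowest in SD control. The second probe set of Map4k1 did not repeat this, with 29.0, 9.0, 34.4 and 15.0.

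As Map4k1 is a gene of blood cells, lymphocyte markers are given beside it. Of 9 listed, 7 are on the array and 3 lay above the floor on all 4, with a summed intensity of 310.6 in SD control, 319.6 in dTGR, 173.5 in dTGR Losartan and 190.7 in Terminal heart failure. Each sum includes values under the floor. On the losartan array these were Cd3d (12.1), Cd3g (22.1), Cd8a (10.0) and Cd79b (12.0). Any part of these cells in the Map4k1 values was not tested.

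Map4k4, a MAP4 kinase upstream of JNK, had 26.0 in SD control, 10.0 in dTGR, 33.4 in dTGR Losartan and 77.8 in Terminal heart failure on its 1 probe set. It was highest in Terminal heart failure, by 2.99-fold over SD control, at least 2.99-fold over dTGR and 2.33-fold over dTGR Losartan. The first of these folds has its lower side at the floor. Map3k8, the kinase Tpl2 of inflammatory signalling, was above the floor only in Terminal heart failure, at 31.2, where the other arrays had 5.0 to 10.1. Map3k1, the gene of MEKK1, was not called, with 169.6 in SD control and from 87.7 to 109.8 on the others. A second probe set of it disagreed, with 122.3, 36.5, 180.8 and 81.8, highest with losartan.

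The scaffold genes Mapk8ip1 and Mapk8ip2, whose proteins hold the JNK relay together, stayed close to the floor, between 17.0 and 39.3 on all arrays, and had 0 calls. Over all genes above the floor on at least 1 array, 35.6% were called at least once.

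The effector kinases of p38 were highest in Terminal heart failure. They were picked after their values were seen, since neither was called. Mapkapk2 had 584.8 in SD control, 564.4 in dTGR, 426.8 in dTGR Losartan and 787.5 in Terminal heart failure. Mapkapk3 had 199.8, 198.0, 164.2 and 267.3. Both genes thus had the terminal array at the top and the losartan array at the bottom. The 4 probe sets of Mapkapk3 gave log2 differences of 0.42 to 1.57 between Terminal heart failure and SD control and of 0.70 to 1.36 between Terminal heart failure and dTGR Losartan, all higher, while Terminal heart failure against dTGR gave -0.23 to 0.97.

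Rps6kb1, the gene of the S6 kinase that acts downstream of mTOR and that entered the set by its name, had 134.4 in SD control, 226.9 in dTGR, 120.8 in dTGR Losartan and 99.0 in Terminal heart failure. It was highest in dTGR, 2.29-fold above the terminal array. Its second probe set ran the other way, with 44.3, 24.1, 58.5 and 56.4, and the median of both gave -0.04. Of the 13 calls over all comparisons whose gene had another measured probe set, all other probe sets had the same sign in 6.

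The comparisons of dTGR with SD control and of Terminal heart failure with dTGR Losartan share no array and each lies within a chip lot. Over the 19 members above the floor on all 4 arrays, the log2 differences of both comparisons had a Spearman correlation of -0.31 (Pearson -0.18), with the same sign in 5 members (26.3%). Over all 2584 such genes it was 0.14 (Pearson 0.18), with the same sign in 54.5%. These correlations are across genes of 4 arrays and carry no test. Dusp6 was called in both (1.12 and 1.96), while Mapk4 had 1.61 and 0.69, of which the second is short of 2-fold. Map3k9, Map4k1 and Mapk12 were called higher in dTGR, and their differences between Terminal heart failure and dTGR Losartan, -0.71, -0.67 and -0.35, were not called. The second probe sets of Map4k1 (-0.16 in the comparison of dTGR with SD control) and Mapk12 (0.58 in the other) had the opposite sign.

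**Figure D4:**
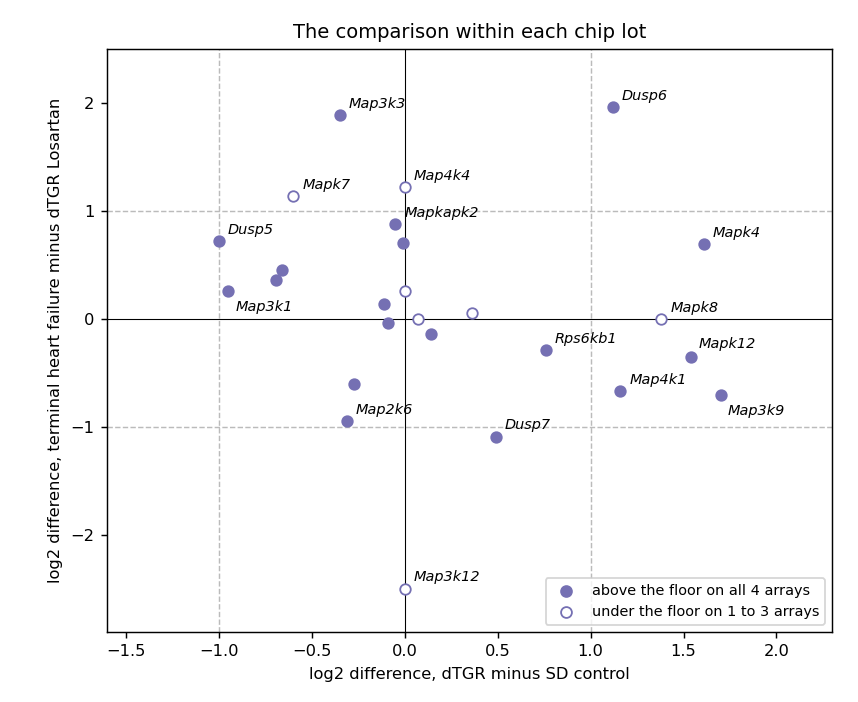
log2 difference of each member between dTGR and SD control (horizontal) and between Terminal heart failure and dTGR Losartan (vertical), 1 array per group, with dashed lines at 2-fold and open points for genes under the floor on 1 to 3 arrays (a difference of 0 where both arrays of a pair are under it). Dusp6, at 1.12 and 1.96, is the one gene past 2-fold upward in both.

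Other genes of the pathway were taken from a list of 112 receptors, adaptors, small GTPases, upstream kinases, inhibitors, phosphatases and targets, of which 80 are on the array. In Terminal heart failure against SD control, 9 of 64 measured were at least 2-fold higher and 3 lower (median -0.03), beside 6.37% and 8.33% of all genes, and against dTGR Losartan 11 of 66 were higher and 3 lower (median 0.29), beside 7.43% and 7.34%. The higher genes were mostly from the targets of the list. Of these, 7 of 19 were higher and 2 lower in each of both comparisons, with a median of 0.87. The targets include transcription factors and other proteins, such as Hspb1, and were not split by how the relay acts on them. In dTGR against SD control the list gave 3 higher and 2 lower of 69, beside 7.69% and 5.86% of all genes. Losartan against dTGR gave 1 higher and 9 lower of 67 (median -0.29), beside 5.90% and 9.49%.

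Junb, an AP-1 subunit, had an intensity of 90.1 in SD control, 145.6 in dTGR, 35.7 in dTGR Losartan and 231.6 in Terminal heart failure. It was lowest with losartan, 4.08-fold below dTGR, and the terminal array was 6.49-fold above the losartan array. Fos, its partner in AP-1, had 199.9, 227.3, 133.2 and 1061, and Atf3, a stress-induced factor, had 49.2, 167.6, 49.4 and 528.1. Atf3 thus had the same order as Dusp6, with both untreated disease arrays above the control and losartan arrays, while Fos stood out on the terminal array alone. Errfi1, an inhibitor of the EGF receptor, had 44.7, 31.9, 56.4 and 181.3, again high on the terminal array alone. Myc had 35.4, 56.9, 47.4 and 207.1, highest on that array too. Max had 44.2, 132.5, 62.1 and 122.9, and Hspb1 had 3498, 6588, 2082 and 8745. Both were higher on the untreated disease arrays than on the control and losartan arrays. Arrb2 had 77.7, 108.8, 36.3 and 53.8, lowest with losartan, and Sos1 had 302.5, 146.1, 291.6 and 221.5, lowest in dTGR.

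Of the receptors and adaptors, 0 of 16 measured were higher and 3 lower with losartan than in SD control, beside 2.24% and 4.80% of all genes. Fgfr1, a receptor for fibroblast growth factors, had 310.5 in SD control, 290.2 in dTGR, 101.6 in dTGR Losartan and 178.7 in Terminal heart failure, 3.06-fold lower with losartan than in SD control. The whole list had 0 higher and 7 lower of 63 in that comparison (median -0.11), beside the 2.24% and 4.80% of all genes. Among the 7 was Rhoa, a small GTPase of the cytoskeleton, with 601.5, 603.9, 253.7 and 447.1 on the arrays in the same order (2.37-fold lower with losartan than in SD control). Traf2, an adaptor of tumour necrosis factor receptors, had 81.5, 55.4, 34.8 and 65.4 (2.34-fold). The other MAP kinase phosphatases of the list, which are not of the dual-specificity family, had 0 calls in 5 comparisons and 1 in the sixth. That call was Ptprr, 2.01-fold lower in Terminal heart failure than in dTGR Losartan, of 6 measured, beside 7.34% of all genes. Of the phosphatases measured here, Dusp6 alone was higher in Terminal heart failure than on each of the other 3 arrays by 2-fold or more on the probe set used.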

How the data were processed

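Gene expression was measured on 4 oligonucleotide arrays, 1 per group, and the groups follow the sample titles. The table that the authors deposited holds an intensity for each probe set on each array. Software and detection calls behind it are not given in the sources. Chip lot, run day and fluidics settings were read from the instrument records that the authors deposited with each array, which hold no other kind of measurement. Of 15281 deposited values from 1 to under 32, 13625 had decimals that look like a month, as a spreadsheet writes a date, and 0 of the values of 32 or more did. This moves a value by less than 1 unit.

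Arrays were scaled to equal trimmed means (2% left out at each end, factors 0.9999 to 1.0), a floor was set at the 40th percentile of the values of all arrays, to which lower values were raised, and differences were taken on the log2 scale. 1793 probe sets that are controls or have no symbol or several were left out. Gene names are those of the platform annotation. A difference was called at 2-fold or more, with no test, because 1 array per group allows none. 8 alternatives were tried, with limma 3.58.1 for cyclic loess in R 4.3.3, and Python 3.11.15, numpy 2.4.6, pandas 2.3.3 and scipy 1.17.1 for the rest. The members, lists and settings were chosen with earlier results of these data known. Named with all 4 values were members called in any comparison and, if above the floor throughout, the ERK, JNK, p38, MAP2 kinase and phosphatase genes. Of the pathway list, these were up to 4 genes per comparison with the largest difference past 2-fold, above the floor on both arrays. The number of arrays limits the precision. The classical ERK kinases are not analysed here.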

Additional observations from a re-analysis of the deposited data

How the results depend on the processing

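No paired analysis was possible because each group has 1 array and the replicate number 1 is only a name. Of the 33 calls of members over the 6 comparisons, 5 held under all 8 alternatives, and 20 held under the 7 other than the floor at the 60th percentile (66.2), which lost 24. Leaving out the floor lost 9, the median of the probe sets 9, the same median 5, quantile normalization 2, cyclic loess 1, and the floor at the 25th percentile (11.0) and low values read as 1 decimal 0 each. 1 call reversed: Mapk14, losartan against dTGR, was -0.79 with the median of the probe sets. Under the 60th percentile floor, the higher counts were 0 for dTGR against SD control, 1 for losartan against SD control, 1 for Terminal heart failure against SD control, 2 against dTGR and 1 against losartan, and the lower counts were 0 for losartan against SD control, 0 for losartan against dTGR, and 1 for Terminal heart failure against dTGR and 1 against losartan. With the floor at the 25th percentile, 1 was lower in dTGR than in SD control and 3 with losartan than in SD control. With the median of the probe sets, 3 were higher in Terminal heart failure than in dTGR, 1 was lower in dTGR than in SD control, and 3 were lower with losartan than in SD control. With no floor and a pseudocount of 16, 2 were higher with losartan than in SD control and 1 was lower in Terminal heart failure than with losartan. With scaling to the same median, 2 were lower in dTGR than in SD control and 1 was lower in Terminal heart failure than in dTGR. That scaling moved the median over all genes from 0.03 to -0.19 for dTGR against SD control. The cause of these shifts was not tested, except that a higher floor removes low values by construction. The alternatives were run on the members and on the counts over all genes, not on the pathway and marker lists. Precision is limited by signal near the floor and by 1 array per group.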
